A study of Rattus norvegicus with 18 samples.

Results

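DDEB and CDEB are 2 of the 4 p-dialkoxy chlorobenzenes that were given to rat primary hepatocytes, and the genes and functions that moved with both of them are described here. Each compound was read against its own solvent control, DDEB against VC_2 and CDEB against VC_1, so 12 of the 18 arrays in 4 of the 6 groups are used. A gene was counted as moved with both compounds when all 3 DDEB arrays lay above, or all below, all 3 VC_2 arrays and all 3 CDEB arrays lay on the same side of all 3 VC_1 arrays. Of 21574 genes tested, 845 lay higher with both compounds, 376 lay lower with both and 118 lay on opposite sides. The 2 comparisons are not independent, since VC_1 and VC_2 arrays of the same replicate number read nearly alike, as described below. The balance of higher and lower moved with the scaling, to 692 and 529 with quantile scaling, 691 and 559 with cyclic loess, and 716 and 483 with the percentile taken over spots.

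The labels describe cryopreserved hepatocytes of male Sprague Dawley rats in a medium supplied with the cells. After 24 h of preculture they were exposed for 24 h to DMSO in the VC_1 and VC_2 groups, or to DDEB or CDEB at 300 µM. Each group held 3 arrays, stated to come from independent experiments, and 100 ng of total RNA per sample was labelled with the green dye Cy3. Dose and time were therefore the same for the 2 compounds, and 1 pair of compounds was compared. Whether different animals supplied the cells is not given, so p-values measure only the spread between these cultures.

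Liver cells burn fatty acids in mitochondria and, for very long chains, in peroxisomes, while microsomal omega-hydroxylases of the Cyp4a family oxidise the methyl end of the chain. Genes of all of these routes are classic targets of the nuclear receptor PPAR alpha, which binds DNA as a partner of RXR and is activated in rodents by fatty acids and by fibrate drugs. Other nuclear receptors (CAR, PXR, AhR and LXR) control drug-metabolising enzymes, transporters and lipid synthesis, and their target genes are commonly read in hepatocytes to describe how a foreign compound acts.

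Values are log2 signals relative to the array's 75th percentile, so 1 unit is a doubling of the signal, and a change is the difference from the own control on that scale. Albumin (Alb), the main secreted protein of hepatocytes, read between 8.37 and 8.94 on the 12 arrays, and all 10 hepatocyte markers passed the filter on dim probes. Of the markers of other liver cells, 2 of 8 Kupffer cell, 3 of 7 endothelial, 6 of 8 stellate, 3 of 5 bile duct and 2 of 6 lymphocyte genes passed. The 75th percentile lay between 421 and 640 intensity units, and 61.0% to 64.3% of probes were well above background.

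The design text gives a difference in chip lots as the reason for the 2 control sets, yet VC_1 and VC_2 arrays of the same replicate number read nearly alike. Over the 10787 genes above the median level, the deviations from the group mean correlated at 0.937, 0.913 and 0.976 between same-numbered arrays. The median absolute difference of these deviations was 0.0319 to 0.0408 for the same number and 0.0931 to 0.264 for different numbers. The labels do not say whether these are the same cultures on both chip lots, and the DDEB and CDEB comparisons are taken here to share controls. Results on the mean of the 2 effects are therefore given with the 6 control arrays as separate samples and again with each same-numbered pair averaged to 1 control. The counts by the rule, for all genes and for the lists, were not redone in this way. A deviation shared by the controls moves both comparisons the same way. Same-direction counts, also beside the opposite ones, are thus not those of 2 independent comparisons.

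Replicate 3 of both control sets stood apart from replicates 1 and 2, and so did DDEB replicate 3. The median of 31 cell cycle genes over the own control mean was -0.22, -0.17 and 0.44 on the VC_2 arrays and -0.21, -0.19 and 0.49 on the VC_1 arrays. It was -0.38, -0.28 and 0.58 with DDEB and -0.41, -0.45 and -0.36 with CDEB. The CDEB arrays were also the most alike, with a median SD over genes of 0.0739 against 0.189 with DDEB, 0.148 in VC_1 and 0.141 in VC_2.

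CDEB was hybridised on a slide of its own with another compound (CDMB) and VC_1 on a different slide, so CDEB and its slide cannot be told apart. DDEB replicates 1 and 2 shared a slide with VC_2, and DDEB replicate 3 was on a further slide. The dim spike-in controls relative to the bright ones read 1.21% to 1.28% with CDEB against 1.98% to 2.04% in VC_1. The same share was 1.09%, 1.18% and 1.66% with DDEB against 1.73% to 1.83% in VC_2, so it was lower on all 6 treated arrays than on their controls, and its part in the results was not tested.

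By the rule, 2174 genes (10.1%) lay above and 1316 (6.1%) below the controls with DDEB, and 3434 (15.9%) lay above and 2995 (13.9%) below with CDEB. The genes higher with both made up 3.92% of those tested and the genes lower with both 1.74%. With DDEB alone 1265 genes (5.86%) lay above and 886 (4.11%) below the controls, and with CDEB alone 2535 (11.8%) lay above and 2555 (11.8%) below. The median change over all genes was 0.01 for each compound. Without replicate 3 of both control sets, 1352 genes lay higher and 960 lower with both, and 689 lay on opposite sides. Without DDEB replicate 3, the counts with both compounds were 1566 higher and 1154 lower. With fewer arrays the rule is easier to meet. Such counts can only stay or rise, and they do not compare directly with those from all 3 arrays.

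Tested one at a time with limma across all 18 arrays, DDEB changed 182 genes (0.844%) at an adjusted p under 0.05, 128 higher (0.593%) and 54 lower (0.25%). Quantile scaling turned that balance, with 331 DDEB calls of which 45.9% were higher against 70.3% here. CDEB changed 24 (0.111%), 12 higher (0.0556%) and 12 lower (0.0556%), and 11 genes were called in both. The named genes among these 11 were Cyp4a3, Scd and Galnt2. With slide as a random block (estimated correlation 0.455) CDEB had 0 calls, so each CDEB call named below is lost there (limma adjusted p = 0.99991). The mean of the 2 effects was called for 769 genes (3.56%), 516 higher (2.39%) and 253 lower (1.17%), with the 6 controls as separate samples. Of these calls 67.1% were higher, against 54.5% with quantile scaling, 58.1% with cyclic loess and 58.2% with the percentile over spots. With each pair of controls counted once it was called for 47 (0.218%), 39 higher (0.181%) and 8 lower (0.0371%), and 22 of these have a plain gene symbol. All 47 were off the controls in the same direction with both compounds and all were among the 769. With slide as a random block the mean effect was called for 5 genes, and of the 22 named genes Cyp4a3, Scd and Crat were called.

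"Rose" and "fell" are used below for genes called with the controls counted once, or for 1 compound where that is said. The call with the controls counted once is on the mean effect and does not show that each compound changed the gene. Of the named genes so called, only Cyp4a3, Scd and Galnt2 were also called in the CDEB comparison. The call with the controls counted once was sensitive to single cultures. Leaving out each of the 9 cultures in turn (3 DDEB, 3 CDEB, 3 controls) gave between 2 genes, without control 3, and 251 genes, without DDEB replicate 3. Standard errors are those of the 18-array fit. Of the named genes, Scd stayed called in all 9, Cyp4a3 was lost without control 3 (limma adjusted p = 0.0644), and Colq was lost in 3 of the 9. Crat was lost in 6, Cyp4a1 and Itga5 in 7 and the other 16 in 8, each of them called without DDEB replicate 3.

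Most genes of 4 lists grouped here under fatty acid oxidation were higher on average with both compounds, 68 of 90, and 4 were lower with both. Over all 21574 genes these counts were 6723 and 5731. The fuel switch list, whose genes spare glucose or store and release fat, gave 33 of the 90 genes and 22 of the 68. Of 90 measured genes in 4 lists (omega-hydroxylation, peroxisomal beta-oxidation, mitochondrial oxidation, and fuel switch with ketogenesis), 44 lay above the controls with DDEB, 52 with CDEB and 31 with both, and 0 lay below with both. Of all genes tested, 10.1%, 15.9% and 3.92% lay above in the same way and 1.74% below with both. Over the 90 genes, the median over the own control mean was 0.31, 0.34 and 0.31 on the DDEB arrays and 0.24, 0.23 and 0.20 on the CDEB arrays. The control arrays read 0.07, 0.03 and -0.12 in VC_2 and 0.07, 0.04 and -0.11 in VC_1, so every treated array lay above every control array. The mean effect was called for 28 of the 90, all higher, and for 6 with the controls counted once. With slide as a random block it was called for 2 of the 90, Cyp4a3 and Crat. The lists were drawn up with earlier results of these data known.

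**Figure D1:**
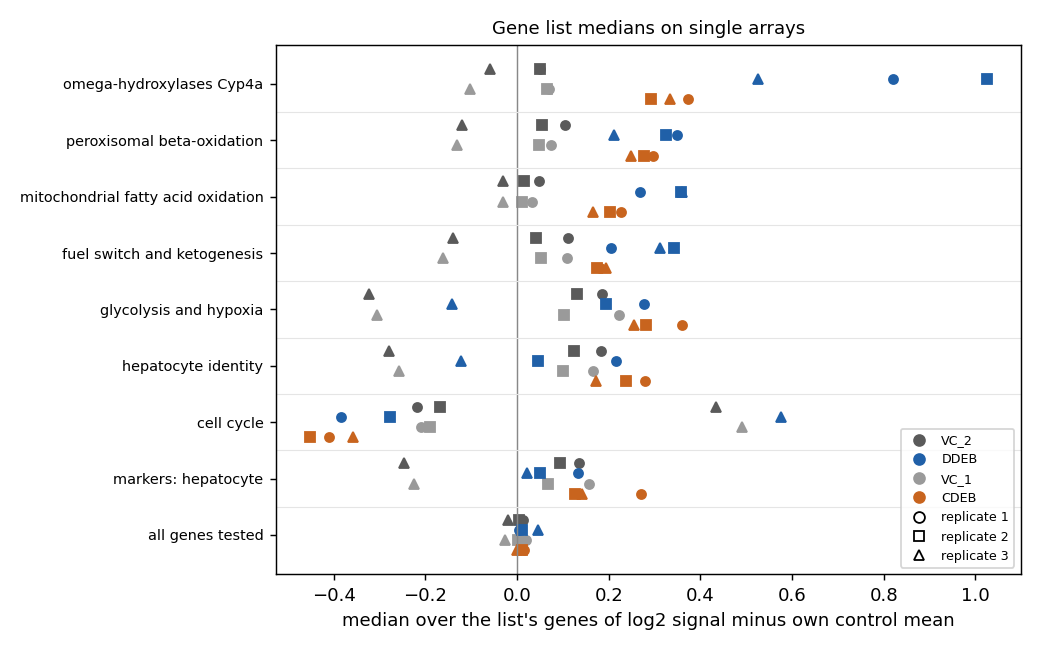
Median change of the genes of each list on every array, in log2 units over the mean of the array's own controls, with the replicate number given by the marker (circle 1, square 2, triangle 3). All 6 treated arrays lie above the controls for the 4 fatty acid oxidation lists, while replicate 3 of both control sets lies apart for glycolysis and the cell cycle.

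Of the 6 measured omega-hydroxylation genes, 4 were higher on average with both compounds and 2 were lower with both. By the rule 1 lay below the controls with DDEB and 0 with both. Under normexp background correction, and under quantile scaling, 1 gene lay below with both. Cyp4a1 and Cyp4a3 were called with the controls counted once. Cyp4a1 makes dicarboxylic acids from medium and long chain fatty acids, and its level was 2.64, 2.61 and 2.67 in VC_2 and 3.50, 3.74 and 3.74 with DDEB. It was 2.82, 2.81 and 2.89 in VC_1 and 3.61, 3.62 and 3.65 with CDEB. The groups did not overlap for either compound. Cyp4a1 rose (limma adjusted p = 0.0336 for the mean effect), by 1.02 ± 0.14 (SE, n = 3) or 2.03-fold with DDEB and by 0.79 ± 0.14 or 1.73-fold with CDEB. The mean effect was not called with slide as a random block (limma adjusted p = 0.0876).

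Cyp4a3, a close relative of Cyp4a1 with the same kind of substrate, read 3.96, 4.00 and 3.77 in VC_2 and 4.80, 4.92 and 4.65 with DDEB. Its VC_1 arrays gave 4.14, 4.17 and 3.90 and its CDEB arrays 4.72, 4.66 and 4.70. Control replicate 3 was the lowest in both sets, and the treated arrays still lay clear of all controls. Cyp4a3 rose by 0.88 ± 0.10 with DDEB (limma adjusted p = 0.00502) and by 0.62 ± 0.10 with CDEB (limma adjusted p = 0.0308), and in the mean effect (limma adjusted p = 0.00834). The CDEB call was lost with slide as a random block and in 8 of the 12 fits that left out 1 array, up to a limma adjusted p of 0.159, while the mean effect stayed called with the slide block (limma adjusted p = 0.0186). Related Cyp4a genes can cross-hybridise, and the separate values of Cyp4a1, Cyp4a2 and Cyp4a3 are uncertain to that extent. Cyp4a2 was 0.73 higher with DDEB and 0.87 higher with CDEB, off the controls with both, without being called (limma adjusted p = 0.284 for the mean effect). Cyp4b1, which is dim, was 1.19 higher with DDEB, off its controls, and 0.04 higher with CDEB, without a call.

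The Cyp4a3 promoter is shown because the gene was called for each compound, and because PPAR alpha with RXR binds repeats of the letters AGGTCA. The window runs from 250 bases before to 50 bases after the transcription start in RefSeq on GRCr8, chr5:134352187-134352486 on the minus strand, and capitals mark the AGGTCA letters, 105 bases before the start on the gene's own strand.
Cyp4a3: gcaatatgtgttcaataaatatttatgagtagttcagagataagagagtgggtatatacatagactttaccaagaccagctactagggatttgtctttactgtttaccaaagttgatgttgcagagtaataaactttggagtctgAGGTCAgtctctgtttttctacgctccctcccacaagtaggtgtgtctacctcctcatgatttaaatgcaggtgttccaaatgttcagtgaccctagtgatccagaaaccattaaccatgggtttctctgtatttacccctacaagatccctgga

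Searched on both strands, AGGTCA occurred in 18 of the 75 promoters found for the 90 fatty acid oxidation genes (24%), in 12.6% of the 8902 promoters of measured genes with a plain symbol and in 16.2% of the 33469 promoters of the table. Among genes off the controls with both compounds, AGGTCA was in 64 of 426 promoters of higher genes (15%). For lower genes it was in 21 of 166 (12.7%). Of those also called in the mean effect, 30 of 183 higher (16.4%) and 9 of 62 lower genes (14.5%) held it. These shares lie near those of the measured genes and of the table. Of the 22 named genes called with the controls counted once, 18 had a promoter in the table and 4 of these held it (Cyp4a3, Dpp9, Omd and Pcp4l1). The direct repeat of these letters with 1 base between, which contains AGGTCA at both ends, was in 18 promoters of the whole table (0.0538%) and in 0 of these 75. A match of letters is a description of the window and not a measured binding site.

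In the peroxisomal list, 12 of 27 measured genes lay above the controls with both compounds, beside 3.92% of all genes. The mean effect was called for 12, all higher. With the controls counted once Ehhadh and Decr2 were called, and with slide as a random block 0 of the 27. The list's median change was 0.28 with each compound. The medians were 0.15 with DDEB and 0.20 with CDEB without replicate 3 of both control sets, where the mean effect was called for 8. There 13 genes lay above the controls with both, by a rule that fewer arrays make easier to meet. The list's median over the own control mean was -0.12 and -0.13 on replicate 3 of VC_2 and VC_1, the lowest of each set.

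Ehhadh, the bifunctional enzyme that carries out the middle steps of peroxisomal beta-oxidation, read -1.07, -1.06 and -0.91 in VC_2 and -0.38, -0.32 and -0.40 with DDEB. It read -0.28, -0.27 and -0.38 in VC_1 and 0.12, 0.19 and 0.25 with CDEB. The treated arrays were well clear of the controls in both sets, although the control sets themselves differed in level. Ehhadh rose (limma adjusted p = 0.0348), by 0.65 ± 0.10 with DDEB and 0.50 ± 0.10 with CDEB.

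Decr2, the peroxisomal reductase for unsaturated chains, rose by 0.52 ± 0.10 and 0.50 ± 0.10 (limma adjusted p = 0.0355). The thiolases Acaa1a and Acaa1b were called for DDEB, at 0.70 and 0.75, and read 0.23 and 0.27 higher with CDEB. The 2 thiolases share most of their sequence and cannot be fully told apart by hybridisation.

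Catalase (Cat), which breaks down hydrogen peroxide, was 0.38 higher with DDEB and 0.41 higher with CDEB. Hsd17b4, the second bifunctional enzyme, was 0.33 and 0.32 higher, and Ech1 was 0.44 and 0.42 higher. Ephx2, the soluble epoxide hydrolase, was 0.43 and 0.37 higher. These 4 genes were off the controls with both compounds and called in the mean effect with 6 separate controls, but not with the controls counted once.

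Of 24 measured genes of mitochondrial fatty acid oxidation, 15 lay above the controls with DDEB, 15 with CDEB and 10 with both. The shares of all genes were 10.1%, 15.9% and 3.92%. The medians were 0.31 with DDEB and 0.20 with CDEB, and 22 of the 24 were higher on average with both. The mean effect was called for 9, for Crat with the controls counted once, and for Crat with slide as a random block. With replicate 3 of both control sets left out the medians were 0.29 and 0.16 and the mean effect was called for 3. There 14 genes were off the controls with both, by a rule that fewer arrays make easier to meet. With normexp background correction 4 genes were off the controls with both.

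Crat moves short acyl groups between carnitine and coenzyme A in mitochondria and peroxisomes. It read 4.47, 4.45 and 4.42 in VC_2 and 5.15, 5.16 and 5.20 with DDEB, a gap far wider than the spread within either group. With CDEB it read 4.72, 4.73 and 4.69 against 4.46, 4.41 and 4.40 in VC_1, also without overlap. Crat rose (limma adjusted p = 0.0161), by 0.73 ± 0.07 or 1.66-fold with DDEB and 0.29 ± 0.07 or 1.22-fold with CDEB. The DDEB change exceeded the CDEB change by 0.44, with a 95% interval of 0.28 to 0.60 when same-numbered controls were a random block, and this difference was not called (limma adjusted p = 0.0553).

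Other mitochondrial genes with higher readings after both compounds were Eci1 (0.87 with DDEB and 0.31 with CDEB), an isomerase for unsaturated chains, and the thiolase Acaa2 (0.69 and 0.38). Cpt2, the inner membrane carnitine transferase, was 0.44 and 0.18 higher, and Acadm, the medium chain dehydrogenase, 0.31 and 0.21. All 4 were off the controls with both and called with 6 separate controls, not with controls counted once (limma adjusted p = 0.11 to 0.137). Cpt1a, the liver form of the entry enzyme, was 0.61 higher with DDEB, where the arrays did not overlap, and 0.23 higher with CDEB, where they did.

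The fuel switch list holds genes that spare glucose or store and release fat. Of its 33 measured genes, 12 lay above the controls with DDEB, 14 with CDEB and 6 with both, beside 10.1%, 15.9% and 3.92% of all genes. The list medians were 0.23 and 0.18. The mean effect was called for Ucp2, Angptl4, Plin2, Mgll and Acot3, for Ucp2 with the controls counted once, and for 0 of the 33 with slide as a random block. Ucp2, an inner mitochondrial membrane carrier, read -2.92, -3.36 and -3.37 in VC_2 and -2.47, -2.74 and -2.23 with DDEB. In VC_1 it read -2.95, -2.54 and -2.66 and with CDEB -1.89, -2.13 and -2.15, so the groups were separate for each compound. It rose by 0.74 ± 0.16 and 0.66 ± 0.16 (limma adjusted p = 0.0439).

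Angptl4, a secreted inhibitor of lipoprotein lipase, was 0.56 higher with DDEB and 0.30 higher with CDEB. Plin2, the coat protein of lipid droplets, was 0.43 and 0.14 higher. Pdk4, which shuts pyruvate out of the citric acid cycle, was 0.60 higher with DDEB, off its controls, and 0.01 higher with CDEB, within them. The difference for Pdk4 was not called (0.60, limma adjusted p = 0.132 with the control block).

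**Figure D2:**
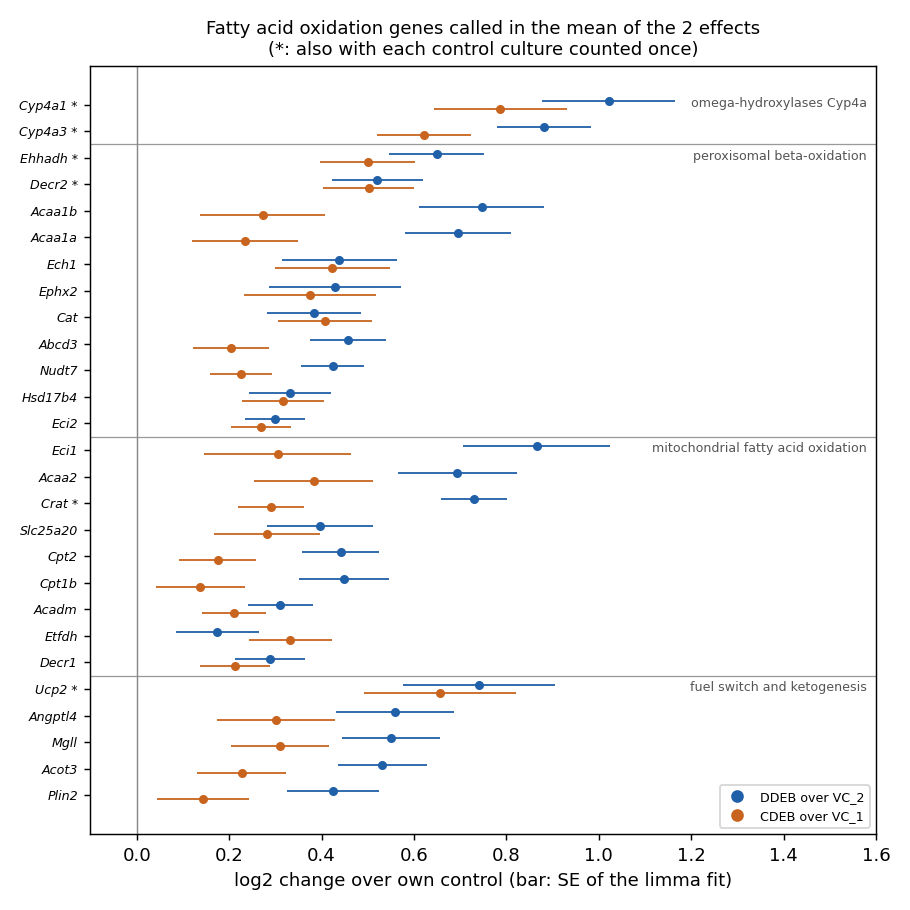
Change in log2 units over the own control (points, bars are SE, n = 3) with DDEB and with CDEB for fatty acid oxidation genes called in the mean effect with 6 separate controls, 1 of the 28 not drawn; asterisks mark the 6 also called with the controls counted once. All points lie above 0, from 1.02 with DDEB for Cyp4a1 down to 0.14 with CDEB for Plin2 and Cpt1b.

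On the slide that CDEB shared with CDMB no VC_1 array was present, and the difference between those compounds is the only one free of slide for CDEB. There CDEB read higher than CDMB by 0.64 for Cyp4a1, 0.61 for Ehhadh, 0.50 for Ucp2, 0.39 for Cyp4a3 and 0.35 for Scd, and none of these differences was called (limma adjusted p = 0.112 to 0.8). Crat read 0.07 higher, and the median over the 90 fatty acid oxidation genes was 0.07 beside 0.00 over all genes.

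Scd, the desaturase that makes oleate from stearate, was the named gene whose mean effect stayed called in all 9 fits that left out 1 culture. It read 6.41, 6.35 and 6.28 in VC_2 and 6.91, 6.83 and 6.91 with DDEB. It read 6.46, 6.46 and 6.25 in VC_1 and 6.98, 6.95 and 6.91 with CDEB. The lowest treated array was above the highest control in each set. Scd rose by 0.54 ± 0.07 or 1.45-fold with DDEB (limma adjusted p = 0.00502), by 0.56 ± 0.07 or 1.47-fold with CDEB (limma adjusted p = 0.00805), and in the mean effect (limma adjusted p = 0.00565). The CDEB call was lost with slide as a random block and without CDEB replicate 2 (limma adjusted p = 0.0694), while the mean effect stayed called with the slide block (limma adjusted p = 0.0186). The DDEB change less the CDEB change was -0.02, with a 95% interval of -0.19 to 0.15.

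The Scd promoter is shown beside that of Cyp4a3 because both genes were called for each compound. Its window is chr1:253231682-253231981 on the minus strand of GRCr8, and it holds no AGGTCA on either strand.
Scd: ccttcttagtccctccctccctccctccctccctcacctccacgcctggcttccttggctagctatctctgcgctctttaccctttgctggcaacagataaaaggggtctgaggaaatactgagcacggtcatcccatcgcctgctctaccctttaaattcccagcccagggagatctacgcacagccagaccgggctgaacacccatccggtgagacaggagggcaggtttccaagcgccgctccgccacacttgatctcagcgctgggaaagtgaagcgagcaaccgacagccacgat

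In the list of fatty acid synthesis, which includes Scd, 5 of 22 measured genes lay above the controls with DDEB, 2 with CDEB and 2 with both. The shares of all genes above were 10.1%, 15.9% and 3.92%. Below the controls lay 1 with DDEB, 2 with CDEB and 0 with both, beside 6.1%, 13.9% and 1.74% of all genes. Besides Scd, Agpat2 was called in the mean effect with 6 separate controls (0.28 with DDEB and 0.18 with CDEB). Fasn, which builds the chain itself, read 0.16 lower with DDEB and 0.25 lower with CDEB, inside the spread of the controls for both.

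**Figure D3:**
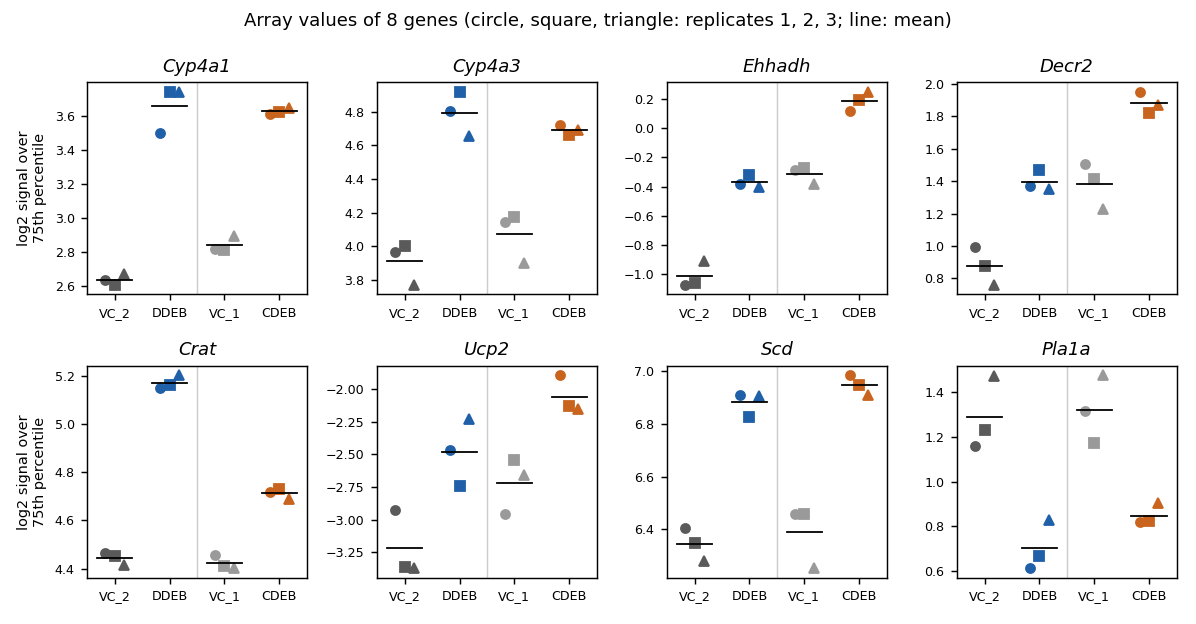
Level on each array, in log2 units relative to the array's 75th percentile, for 8 genes called in the mean effect with the controls counted once, with VC_2 beside DDEB and VC_1 beside CDEB. For Cyp4a1, Cyp4a3, Ehhadh, Decr2, Crat, Ucp2 and Scd each treated array lies above its controls, and for Pla1a each lies below.

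Outside fatty acid metabolism, the largest rise among genes called with the controls counted once was in Colq, which encodes the collagen-like tail that anchors acetylcholinesterase. Colq read -2.65, -2.86 and -3.44 in VC_2 and -1.25, -1.40 and -1.76 with DDEB. It read -2.48, -2.52 and -3.15 in VC_1 and -1.71, -1.92 and -1.88 with CDEB. Replicate 3 was lowest in both control sets, and the groups did not overlap. Colq rose by 1.51 ± 0.20 or 2.85-fold and by 0.88 ± 0.20 or 1.84-fold (limma adjusted p = 0.0161).

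Galnt2, which starts O-linked glycosylation in the Golgi, rose by 0.33 with DDEB (limma adjusted p = 0.0275) and by 0.38 with CDEB (limma adjusted p = 0.0383). Its CDEB call was lost with slide as a random block and in 9 of the 12 fits that left out 1 array, up to a limma adjusted p of 0.184. Itga5, the alpha subunit of the fibronectin receptor, rose by 0.47 and 0.59, and Atxn1, a nuclear repressor protein, by 0.64 and 0.66. Pcp4l1, a relative of Purkinje cell protein 4, rose by 0.79 and 0.44, and Tnfrsf21, death receptor 6, by 0.48 and 0.34. Chchd10, a mitochondrial intermembrane protein, rose by 0.48 and 0.32, from an already high level of 7.20 ± 0.04 (SD, n = 3) in VC_2 and 7.36 ± 0.04 in VC_1.

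Smaller rises came from Zbtb1, a zinc finger repressor (0.44 and 0.33), Emc1, a subunit of the complex that inserts membrane proteins in the endoplasmic reticulum (0.42 and 0.40), and Nnat, neuronatin (0.40 and 0.27). Nr2c1, an orphan nuclear receptor, rose by 0.39 and 0.21 and the peptidase Dpp9 by 0.29 and 0.37. For these 11 genes from Galnt2 to Dpp9, limma adjusted p for the mean effect with the controls counted once was 0.0348 to 0.048, and all 3 treated arrays lay above all 3 controls with both compounds.

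Genes called with the controls counted once and lower with both compounds were fewer, and 3 have a plain symbol. Pla1a, a secreted phospholipase for phosphatidylserine, read 1.16, 1.23 and 1.47 in VC_2 and 0.61, 0.67 and 0.83 with DDEB. It read 1.32, 1.18 and 1.48 in VC_1 and 0.82, 0.82 and 0.90 with CDEB, and the groups did not overlap. It fell by 0.59 ± 0.10 with DDEB and by 0.47 ± 0.10 with CDEB (limma adjusted p = 0.0336).

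Cfap95, a protein of cilia and flagella, fell by 0.79 ± 0.10 with DDEB and by 0.38 ± 0.10 with CDEB. Omd, a keratan sulphate proteoglycan of the extracellular matrix, fell by 0.74 ± 0.10 and 0.30 ± 0.10. The limma adjusted p was 0.0336 for both genes.

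Several larger changes were called with 6 separate controls and not with the controls counted once. Cyp26a1, which breaks down retinoic acid, was well above background on 0 of the 6 control arrays, on 2 DDEB arrays and on 2 CDEB arrays. Against the lowest signal of probes well above background it was at least 3.04-fold higher with DDEB and at least 2.28-fold higher with CDEB (limma adjusted p = 0.0445 with 6 controls, 0.197 with controls counted once). DDEB replicate 3, at -5.77, lay just above the highest VC_2 array at -5.91, while DDEB replicates 1 and 2 read -2.99 and -3.52. Cacna1s, a subunit of the muscle calcium channel, was at least 2.83-fold higher with DDEB and was not well above background on any CDEB or control array.

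Other genes higher with both compounds in that wider call were Dapk1, a death-associated kinase (0.64 with DDEB and 0.74 with CDEB), Slc6a13, a transporter of GABA and taurine (0.77 and 0.56), Mfsd4a (0.66 and 0.51) and Csmd1 (0.57 and 1.19). Lower with both were Nefm, a neurofilament subunit (-1.35 and -0.68), and Slc5a3, the transporter of myo-inositol (-0.69 and -0.56). The male-specific steroid hydroxylase Cyp2c11 was -0.42 and -0.41 from its controls and the uptake transporter Slco1a1 -0.63 and -0.40. All of these were off the controls with both compounds, as the rule for naming them required. With the controls counted once their limma adjusted p lay between 0.0626 for Slc5a3 and 0.199 for Slco1a1.

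Klhl41, Cybrd1 and Car11 were also lower with both and called with 6 controls, at mean effects of -1.24, -1.07 and -0.77. They were dim, well above background on 0 to 1 VC_2 arrays and on 0 DDEB arrays, and under normexp background correction their mean effects turned to 0.14, 0.04 and 0.14.

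**Figure D4:**
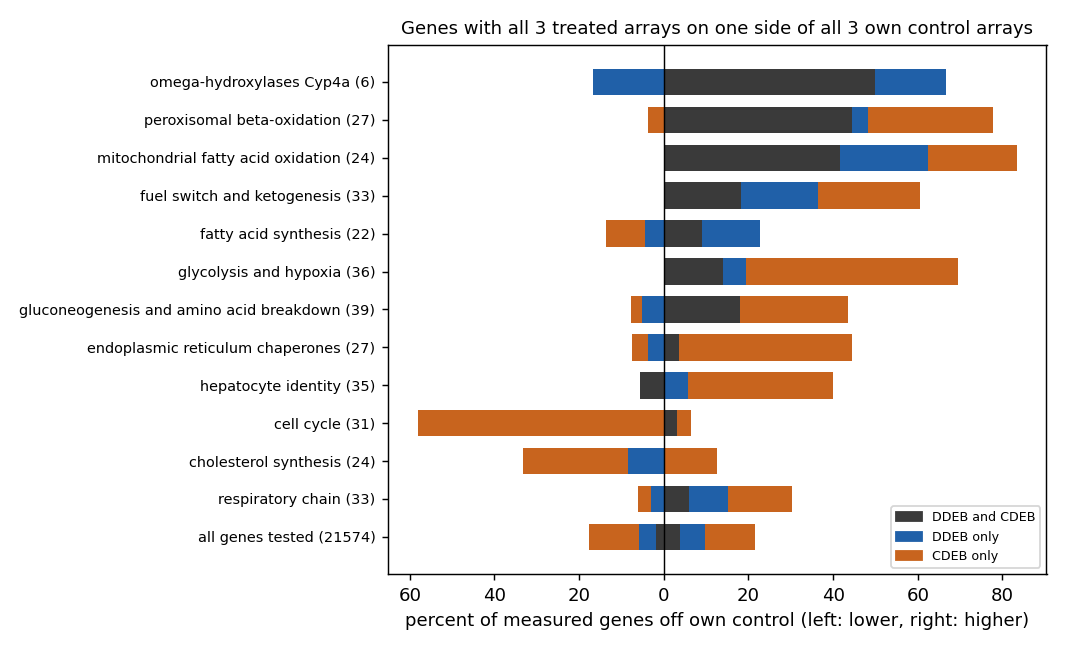
Percent of the measured genes of each list, and of all 21574 genes, whose 3 treated arrays were all off the own controls with both compounds in the same direction, with DDEB only or with CDEB only. Omega-hydroxylation, peroxisomal and mitochondrial oxidation hold the widest bands for both compounds among the lists drawn, while glycolysis, hepatocyte identity and cell cycle are mostly CDEB only.

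Other lists moved off the controls mainly in the CDEB arrays, and in each of them control replicate 3 bears on the value. Of 36 measured genes of glycolysis and hypoxia, 23 lay above VC_1 with CDEB, 7 lay above VC_2 with DDEB and 5 did so with both. The shares of all genes were 15.9%, 10.1% and 3.92%. Slc2a1, a glucose carrier (0.41 and 0.26), Pfkl, the liver phosphofructokinase (0.49 and 0.66), and Gapdh (0.21 and 0.29) were called in the mean effect with 6 controls and none with controls counted once. The list median was 0.18 with DDEB and 0.29 with CDEB, and without replicate 3 of both control sets it was -0.02 and 0.19.

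For 35 genes of hepatocyte identity, 12 lay above VC_1 with CDEB and 2 lay above VC_2 with DDEB, with medians of 0.24 and 0.05. The shares of all genes above were 15.9% and 10.1%. With both compounds 0 genes of the list lay above the controls and 2 lay below, beside 3.92% and 1.74% of all genes. Without replicate 3 of both control sets the medians were 0.10 and -0.09, and under quantile scaling and cyclic loess the DDEB median was -0.02. The 10 hepatocyte markers read -0.23 and -0.25 (median over the own control mean) on replicate 3 of VC_1 and VC_2. They read 0.13 to 0.27 with CDEB and 0.02 to 0.13 with DDEB, and the part of this shift in the CDEB values was not tested.

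In the cell cycle list 18 of 31 genes lay below VC_1 with CDEB and 0 lay below VC_2 with DDEB, with medians of -0.42 and -0.04. The shares of all genes below were 13.9% and 6.1%. Cdk1, the kinase that drives mitosis, read -1.95, -1.66 and 0.01 in VC_2 and -2.87, -1.95 and 0.12 with DDEB. It read -1.69, -1.40 and 0.35 in VC_1 and -2.24, -2.23 and -2.02 with CDEB. Replicate 3 was therefore the highest of its group in VC_1, VC_2 and DDEB, and with CDEB the 3 arrays lay together. Cdk1 was not called for either compound (limma adjusted p = 0.86 and 0.477). Without replicate 3 of both control sets the list medians were -0.17 with CDEB and 0.18 with DDEB. Without DDEB replicate 3 the DDEB median was -0.36. There 6 genes lay below the controls with both, by a rule that fewer arrays make easier to meet.

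Chaperones of the endoplasmic reticulum showed 12 of 27 genes above VC_1 with CDEB and 1 of 27 above VC_2 with DDEB, with medians of 0.12 and 0.01. The shares of all genes above were 15.9% and 10.1%. None was called in the mean effect. The medians were 0.02 and -0.18 with replicate 3 of both control sets left out. Of 39 measured genes of gluconeogenesis and amino acid breakdown, 17 lay above VC_1 with CDEB. With DDEB 7 lay above VC_2, and all 7 lay above with both, beside 3.92% of all genes. The mean effect was called for 3, and for 0 with the controls counted once or with slide as a random block. With quantile scaling 4 lay above with both and with normexp 2. The list's median was -0.13 on replicate 3 of each control set.

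Tests of the difference decide which genes moved with 1 compound. With all 18 arrays separate, the DDEB change differed from the CDEB change for 1 gene (0.00464%), higher with DDEB and without a symbol in the files, while 1425 genes had an unadjusted p under 0.05. Of the genes off control with DDEB only or with CDEB only, 0 had a difference called in that test. With same-numbered controls as a random block, the difference was called for 15 genes (0.0695%), 5 of them with a plain symbol, and with slide as a random block for 0. Leaving out each culture in turn gave 2 to 45 such genes, the lowest without CDEB replicate 1 or 2 and the highest without control 3. These 5 genes were chosen after their values were seen.

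Sat2, an acetyltransferase related to the spermidine acetylating enzyme, read 0.63, 0.62 and 0.65 in VC_2 and 0.67, 0.66 and 0.76 with DDEB. It read 0.85, 0.78 and 0.86 in VC_1 and 0.41, 0.37 and 0.34 with CDEB. The CDEB arrays lay clearly below their controls and the DDEB arrays slightly above theirs. Sat2 fell by 0.45 ± 0.05 with CDEB (limma adjusted p = 0.00805) and was 0.06 higher with DDEB (limma adjusted p = 0.602). The difference was 0.52, with a 95% interval of 0.39 to 0.64 (limma adjusted p = 0.00398), called in all 9 fits that left out 1 culture. With slide as a random block the difference was 0.50 and neither it (limma adjusted p = 0.99999) nor the CDEB fall (limma adjusted p = 0.99991) was called, and the fall was also lost in 1 of the 12 fits that left out 1 array (limma adjusted p = 0.0652).

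Sstr3, a somatostatin receptor, read 0.57, 0.94 and 0.84 in VC_2 and -0.33, -0.20 and 0.07 with DDEB. It read 0.56, 0.80 and 0.70 in VC_1 and 0.61, 0.58 and 0.60 with CDEB, inside the range of its controls. Sstr3 fell by 0.93 ± 0.12 with DDEB (limma adjusted p = 0.00512), and the change with CDEB was -0.09 ± 0.12. The difference was -0.85, with a 95% interval of -1.13 to -0.57 (limma adjusted p = 0.0315).

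Nxnl2, a thioredoxin-like protein of the retina, fell by 1.33 ± 0.21 with DDEB (limma adjusted p = 0.012) and was 0.18 ± 0.21 higher with CDEB, a difference of -1.51 (limma adjusted p = 0.0315). Ropn1, a sperm tail protein, fell by 0.38 ± 0.07 with DDEB (limma adjusted p = 0.0203) and was 0.08 ± 0.07 higher with CDEB, a difference of -0.46 (limma adjusted p = 0.029). Il22, a cytokine, was well above background on 0 arrays of VC_2 and of DDEB, on 1 of VC_1 and on all 3 of CDEB. It passed the filter through CDEB among these groups. Its called difference therefore rests on DDEB and VC_2 values below background and does not show that the compounds differ. The differences of Sstr3, Nxnl2 and Ropn1 were lost in 5 or 6 of the 9 fits that left out 1 culture.

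**Figure D5:**
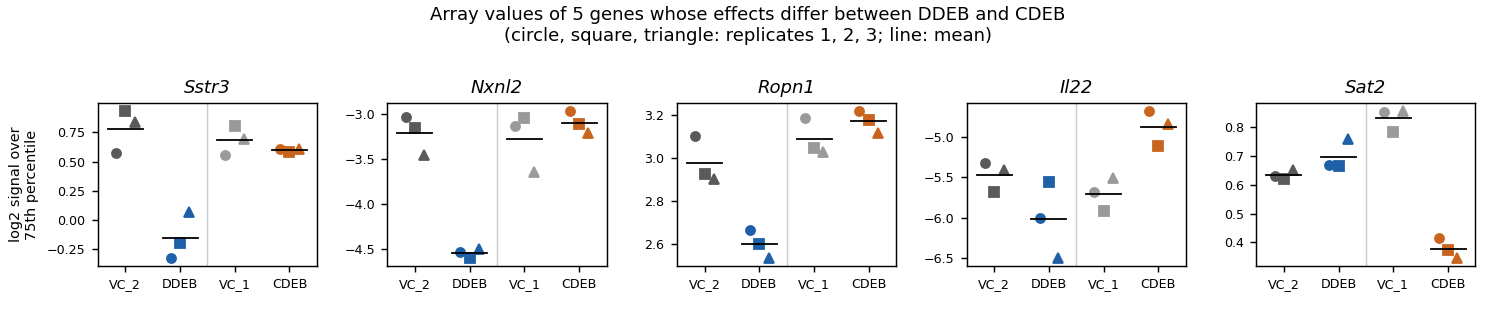
Level on each array, in log2 units relative to the array's 75th percentile, for the 5 named genes whose DDEB and CDEB changes were called as different with the controls as a block; Il22 is below background with DDEB and in VC_2. Sstr3, Nxnl2 and Ropn1 lie below VC_2 with DDEB and overlap VC_1 with CDEB, and Sat2 lies below VC_1 with CDEB.

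Of the 118 genes off the controls in opposite directions (0.547%), 64 were higher with DDEB and lower with CDEB and 54 were the reverse. Ptpn7, a phosphatase of blood cells, showed the largest gap among the named ones. It read -1.62, -0.26 and -3.54 with DDEB against -3.93, -4.76 and -4.07 in VC_2, and -4.59, -4.70 and -4.58 with CDEB against -4.48, -3.86 and -3.84 in VC_1. The DDEB arrays spread over more than 3 log2 units, and the difference of 3.02 was not called (limma adjusted p = 0.522). Cd209f, a lectin, was 0.62 lower with DDEB and 0.75 higher with CDEB, without a called difference (limma adjusted p = 0.48).

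Drug-metabolism and stress genes gave few calls. Of 32 measured CAR and PXR targets, 5 lay above the controls with DDEB, 8 with CDEB and 3 with both, beside 10.1%, 15.9% and 3.92% of all genes. Below the controls lay 1 with DDEB, 4 with CDEB and 1 with both, beside 6.1%, 13.9% and 1.74% of all genes, and 1 lay on opposite sides. Cyp3a23-3a1, the rat's main steroid-inducible Cyp3a enzyme, read 7.22, 7.11 and 7.21 in VC_2 and 7.86, 8.08 and 7.88 with DDEB, and 7.18, 7.29 and 7.32 in VC_1 and 7.54, 7.48 and 7.47 with CDEB. All treated arrays lay above their controls. It rose by 0.76 ± 0.10 with DDEB (limma adjusted p = 0.00514), was 0.23 ± 0.10 higher with CDEB (limma adjusted p = 0.354), and was not called in the mean effect with the controls counted once (limma adjusted p = 0.0598). Cyp3a genes also share sequence, so this probe may read more than 1 of them. The difference of 0.53 was not called (limma adjusted p = 0.134 with the control block). Cyp2b2, a CAR target, was 0.18 lower with DDEB and 0.23 higher with CDEB, within the spread of its controls for both.

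Of 10 measured LXR targets, 2 lay above the controls with both compounds, Abcg1 (0.65 with DDEB and 0.56 with CDEB) and Apoe, and 0 lay below with both. The shares of all genes were 3.92% above and 1.74% below. Abcg5, a sterol transporter of bile and gut, rose by 0.88 with DDEB (limma adjusted p = 0.0212) and was 0.33 higher with CDEB, within the range of its controls (limma adjusted p = 0.391).

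Cyp1a1, the classic AhR target, was 0.67 higher with DDEB and 1.03 higher with CDEB, without a call (limma adjusted p = 0.668 and 0.492). Its control arrays ran from 1.81 to 3.97 in VC_2 and from 1.23 to 3.40 in VC_1, with replicate 3 the lowest in both. Hmox1, an oxidative stress gene, spread over 3.56 to 5.66 in VC_2 and was 0.40 and 0.71 higher. Nqo1 (0.07 with DDEB and -0.10 with CDEB), Atf3 (0.01 and -0.23) and Ddit3 (0.20 and -0.09), genes of oxidative and unfolded protein stress, were not called. Cdkn1a, the p53-induced cell cycle inhibitor, was 0.20 higher with DDEB and 0.60 higher with CDEB, without a call.

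Cyp7a1, the rate-limiting enzyme of bile acid synthesis, read -1.0, -1.27 and -3.27 in VC_2 and -1.50, -1.79 and -4.78 with DDEB. It read -1.09, -1.36 and -3.18 in VC_1 and -0.31, -0.28 and -0.39 with CDEB, so the CDEB arrays lay above VC_1 and the DDEB arrays overlapped VC_2. The changes of -0.85 and 1.55 were not called (limma adjusted p = 0.674 and 0.43), and neither was their difference of -2.40 (limma adjusted p = 0.225 with the control block).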

How the data were processed

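Hepatocyte RNA was hybridised to one-colour Agilent arrays. Per the file headers, the authors' scanner output came from Agilent Feature Extraction 10.7.1.1 with a design on rn4, and the deposited intensity used here (gProcessedSignal) is background-corrected by that program. The authors also deposited a table of normalized signal values per array, used as an alternative with a pseudocount of 0.01; per the design text DDEB was normalized with VC_2 and CDEB with VC_1. Files of all 18 arrays were read, and 0 columns were left unused for want of a label.

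Control spots and flagged outlier spots were left out, log2 was taken, spots of a probe were averaged and each array's 75th percentile over probes was subtracted. Of 45598 probes, 435 with every spot flagged on some array were dropped, and 25306 were kept that passed the scanner's background test throughout 1 or more of the 6 groups, on each of its 3 arrays. A gene took its brightest kept probe. Probes were named through the accession in RefSeq's gene table for GRCr8 (21109 probes, 16581 genes), the others kept the file's name, and 10794 of 21574 genes have a plain symbol. Probes that failed that test on every array of a group have only a bound there, given as "at least N-fold" against the lowest signal of a passing probe.

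limma 3.58.1 (R 4.3.3) was fitted to 6 group means over the 18 arrays (12 residual degrees of freedom), with Benjamini-Hochberg adjustment over all genes and a threshold of 0.05. The code was tested on simulated arrays that were independent and had the same spread per gene in every group. Such arrays lack the likeness of the controls, the slides and the unequal group spreads, so that test cannot show how the fit handles them. Control arrays of one number were also averaged to 1 control (10 residual degrees of freedom) or made a random block (estimated correlation 0.888). Named are the 15 highest rises and 15 largest falls called in the mean effect, genes with a called difference, the 5 largest opposite changes each way, 4 genes per list and a fixed set; genes called with the controls counted once were added later. The members, lists and rules were chosen with earlier results of these data known. Alternatives were background correction (normexp with offset 50 on median signals), scaling, filter, probe rule, samples in the fit, blocks, the looser rule of each treated array against the control mean, and each array left out. The number of arrays limits the precision. Some genes are not reported here.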

Additional observations from a re-analysis of the deposited data

Results flagged for a closer look

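Responses that differed between the compounds are given as the DDEB change less the CDEB change on the log2 scale. With the controls as a random block the difference was called by limma for Sat2 (0.52), Ropn1 (-0.46), Sstr3 (-0.85) and Nxnl2 (-1.51). It was also called there for Il22 (-1.36), from DDEB and VC_2 values below background, which cannot decide whether the compounds differ. In the fit without a block the difference was called for the transcript ENSRNOT00000017818 (1.27). For 10 further genes all 3 arrays of one compound lay on one side of the controls and all 3 arrays of the other compound on the opposite side, and the difference was not called in either fit. Those higher with DDEB were Ptpn7 (3.02), Efcc1 (1.68), Rnf186 (1.03), Lce1f (0.99) and Epb41l4a (0.76). Those lower with DDEB were Dhrs7l1 (-1.91), Cd209f (-1.37), Ino80d (-1.12), Ntrk3 (-1.07) and Spock1 (-1.05). Dhrs7l1 and Ntrk3 were well above background on 0 arrays of VC_2 and of DDEB, and Efcc1 owes its DDEB change to replicate 1, at -1.61 beside -4.20 and -4.54.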

How the results depend on the processing

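Counts of called genes moved with the processing, and so did the share of the calls that were higher. In the order DDEB, CDEB, mean effect and difference, the counts of 182, 24, 769 and 1 became 72, 8, 998 and 0 with normexp, 331, 17, 835 and 3 with quantile scaling, and 217, 6, 274 and 8 with no filter. They became 207, 39, 908 and 2 with probes well above background in all 4 groups, 67, 2, 295 and 0 with only the 12 arrays, and 189, 0, 5 and 0 with slide as a random block. Only the 6 arrays of each comparison gave 0 for DDEB and for CDEB, the deposited values 0 and 8, and slide as a fixed block 353 for DDEB. The mean over a gene's probes gave 170, 22, 638 and 1. With quantile scaling 45.9% of DDEB calls were higher against 70.3%.

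The replicate block gave 421, 38, 1234 and 1. Correlations of same-numbered treated and control arrays were 0.431, 0.0962 and 0.49 for DDEB and 0.197, -0.00234 and 0.112 for CDEB. DDEB replicates 1 and 3 correlated most with VC_2 of their own number. They read -0.478 with VC_2 replicate 3 and -0.452 with VC_2 replicate 1. DDEB replicate 2 correlated more with VC_2 replicate 1, at 0.202. The main fit did not take the numbers as pairs and so leaves this likeness for DDEB out. Alternatives chosen after seeing the data were the percentile over spots and cyclic loess (2 differences each), the controls counted once (47 in the mean effect, 2 without control 3) and the controls as a random block (112, 14, 56 and 15). Without replicate 3 of both control sets the counts were 89, 9, 252 and 2. The counts by the rule, which could only stay or rise, were 2312 in the same direction, 1352 higher, 960 lower and 689 opposite.

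Leaving out each array in turn gave 48 to 353 calls for DDEB, 0 to 96 for CDEB, 227 to 1663 for the mean effect and 1 to 6 for the difference, and 28 of 182, 0 of 24 and 183 of 769 genes stayed called throughout. The counts by the rule then ran from 1355 to 2720 in the same direction, 910 to 1566 higher, 418 to 1154 lower and 160 to 589 opposite. They were highest without DDEB replicate 3 or, for opposite, VC_2 replicate 3. Fewer arrays make the rule easier to meet, so these counts could only stay or rise. With each treated array compared with the control mean, 4283 genes lay in the same direction with both (2714 higher, 1569 lower) and 1579 in opposite directions. The mean effects of Klhl41, Cybrd1 and Car11 reversed under normexp, to 0.137, 0.0444 and 0.143, and the cause was not tested.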
